A study of Mus musculus with 4 samples.

Results

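The 5 muscarinic acetylcholine receptor genes (*Chrm1* to *Chrm5*) and the 5 dopamine receptor genes (*Drd1* to *Drd5*) were followed through the neurons of the mouse posterior hindbrain. These 10 genes, out of 32285 genes counted, were taken as whole families, with no threshold on their values. They were measured in the 12539 nuclei of neuronal clusters out of 39461 nuclei that the study kept, that is, in 134 neuronal clusters of 184 clusters in all, and in the 14 annotated cell types. Levels by cluster are given for the 120 neuronal clusters that held 5 nuclei or more in each library.

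The data are unique molecular identifier (UMI) counts per gene and nucleus from 4 single-nucleus RNA-seq libraries, namely 2 of AgRP-Gq;POMC-Gi and 2 of control mice. The tissue was the part of the hindbrain that holds the area postrema and the nucleus tractus solitarii, and nuclei were sorted with the DNA dye DRAQ5. AgRP-Gq;POMC-Gi mice were AgRP-IRES-Cre+/-;hM3DGqfl/-;POMC-Dre+/-;hM4DGifl/-, so that Cre made in AgRP neurons and Dre made in POMC neurons each release a receptor gene under the CAG promoter at Rosa26. Control mice, labelled WT, carried both receptor alleles according to the study's methods but neither recombinase. All mice were on a C57BL/6 background, were 12 to 20 weeks old and of both sexes, and received clozapine N-oxide (CNO) at 3 mg per kg 1 h before collection. The methods state that samples of a condition were pooled, without saying which mice entered which library. The p-values therefore refer only to the spread between these 4 libraries. The tests used below share that spread among genes, so a p-value need not reflect the spread of the gene itself. Since every mouse received CNO, its own effect was not measured. hM3DGq and hM4DGi were themselves built from human muscarinic receptors, and 0 features of the count tables are named for them, a recombinase or a fluorescent protein.

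Muscarinic receptors are the G-protein-coupled receptors for acetylcholine. The products of *Chrm1*, *Chrm3* and *Chrm5* act through Gq and phospholipase C, whereas those of *Chrm2* and *Chrm4* act through Gi and lower cyclic AMP. Dopamine receptors fall into a D1-like pair (*Drd1* and *Drd5*), which raises cyclic AMP, and a D2-like group (*Drd2*, *Drd3* and *Drd4*), which lowers it. In this part of the brainstem, cholinergic cells lie in the vagal motor nuclei, and dopamine receptors of the area postrema are known as targets of antiemetic drugs.

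The libraries held 9723 to 10051 kept nuclei and 48904976 to 53089402 UMIs each, of which neurons gave 26860073 to 35583732. The share of neurons was 25.4% and 27.2% in control and 38.0% and 36.5% in AgRP-Gq;POMC-Gi libraries. The neuronal markers *Rbfox3*, *Snap25* and *Syt1* together reached 2263 to 2346 counts per 1e6 UMIs (CPM) in neurons. The oligodendrocyte markers *Mog* and *Mag* in the same neurons summed to 16.7 and 20.0 CPM in the AgRP-Gq;POMC-Gi and to 31.1 and 24.5 CPM in the control libraries, without overlap. The part of this difference in the results below was not tested. *Xist*, which is transcribed in female cells, was at 319 to 541 CPM in neurons of 3 libraries and at 16.2 CPM in AgRP-Gq;POMC-Gi replicate 2, which stood apart in this respect. Library pairs shared 19 to 36 kept barcodes.

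*Chrm2* and *Chrm3* were the receptors that most neurons held, *Drd2* was present in a minority, *Drd3* in a few clusters, and the remaining 6 genes were close to absent from the counts. *Chrm2* gave 32565 UMIs in neurons and at least 1 UMI in 6890 of them (54.95%). *Chrm3* gave 44330 UMIs in 6388 neurons (50.95%). *Drd2* gave 1384 UMIs in 1013 neurons (8.08%), and *Drd3* gave 250 UMIs in 172 neurons (1.37%). The other 6 genes summed to between 8 UMIs (*Chrm5*) and 61 UMIs (*Drd5*) and were seen in 0.0638% to 0.463% of neurons. Oligodendrocytes, taken here as the measure of background such as free RNA, held a *Chrm2* UMI in 1.43% of nuclei, a *Chrm3* UMI in 0.714%, a *Drd2* UMI in 0.155% and a *Drd3* UMI in 0.00595%. *Drd1* and *Drd4* were found in 0 of 16816 oligodendrocytes, which allows a share of up to 0.0178%. The median nucleus held 8704 UMIs in neurons and 2460 in oligodendrocytes, so these shares were not measured at the same depth.

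Counts were also compared per length of gene, on GRCm38 coordinates of GENCODE M21. In neurons *Chrm2* gave 232 UMIs per kb, *Chrm3* 91.3, *Drd2* 20.5, *Drd5* 19.4, *Chrm4* 11.8, *Drd1* 10.6, *Chrm5* 5.00, *Drd3* 3.63, *Drd4* 3.59 and *Chrm1* 2.58. By this measure *Chrm2* stood above *Chrm3*, but per kb of exon the order turned, with 5380 UMIs for *Chrm2* and 7089 for *Chrm3*. On the exon scale *Drd2* had 543 UMIs per kb and *Drd3* had 146, above *Drd5* (19.4), *Drd1* (13.2), *Chrm4* (11.8), *Chrm1* (7.86), *Chrm5* (5.00) and *Drd4* (4.73). *Chrm2* spans chr6:36388084-36528414 on the plus strand (140331 bases), *Chrm3* chr13:9875486-10360847 on the minus strand (485362 bases), *Drd2* chr9:49340627-49408177 (67551 bases) and *Drd3* chr16:43754026-43822932 (68907 bases), both on the plus strand. Introns make up 95.7% of the *Chrm2* model and 98.7% of the *Chrm3* model. Whether reads in introns were counted is not given in the sources used here, and it would weigh most on these long genes. The GENCODE models of *Chrm4* (1440 bases) and *Chrm5* (1599 bases) hold the coding length alone, while the RefSeq models run 1147 and 438 bases further 3′, and the RefSeq model of *Drd3* runs 3050 bases further 3′. A 3′ kit reads the end of a transcript. Whether the models used in counting also stop short is not known, and an effect on the counts of these 3 genes was not tested.

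The start of *Chrm2* is overlapped by a second gene on the opposite strand, 9330158H04Rik, which shares 2108 bases with it and gave 5635 UMIs in neurons, in 20.9% of them. In the same way Gm26861 shares 3253 bases with *Chrm3* on the opposite strand and gave 437 UMIs. The strand setting of the counting is not given in the sources used here. Whether reads of these gene pairs were kept apart where they overlap was therefore not established. The promoter windows of the 3 receptors with most UMIs are printed because those of *Chrm2* and *Chrm3* lie inside these antisense genes, whereas no antisense model covers that of *Drd2*. Each runs from 250 bases before to 50 bases after a start given by RefSeq on GRCm38.p6, which for these genes is not the outermost start of the RefSeq gene model, 5′ to 3′ on the strand of the gene, with GC boxes (GGGCGG or CCGCCC, both strands searched) in capitals.
Chrm2, chr6:36387834-36388133, plus strand: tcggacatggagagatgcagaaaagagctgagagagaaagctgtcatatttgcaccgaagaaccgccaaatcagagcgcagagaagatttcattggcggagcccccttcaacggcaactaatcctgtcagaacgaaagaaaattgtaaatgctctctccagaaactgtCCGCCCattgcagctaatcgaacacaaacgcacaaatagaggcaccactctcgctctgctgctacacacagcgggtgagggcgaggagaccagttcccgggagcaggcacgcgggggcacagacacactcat
Chrm3, chr13:10360754-10361053, minus strand: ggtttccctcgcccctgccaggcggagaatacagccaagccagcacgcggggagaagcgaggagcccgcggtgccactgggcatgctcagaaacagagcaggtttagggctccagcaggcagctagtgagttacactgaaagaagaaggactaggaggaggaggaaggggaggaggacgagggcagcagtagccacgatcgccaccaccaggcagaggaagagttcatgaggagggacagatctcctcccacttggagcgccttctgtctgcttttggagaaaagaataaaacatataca
Drd2, chr9:49340153-49340452, plus strand: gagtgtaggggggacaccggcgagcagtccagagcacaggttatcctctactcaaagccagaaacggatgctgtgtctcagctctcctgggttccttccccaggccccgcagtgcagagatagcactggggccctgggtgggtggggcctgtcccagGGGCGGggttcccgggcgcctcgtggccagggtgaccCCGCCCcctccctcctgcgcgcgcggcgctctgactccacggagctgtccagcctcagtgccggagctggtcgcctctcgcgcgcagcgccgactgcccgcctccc
The window of *Drd2* held 2 GC boxes, that of *Chrm2* 1 and that of *Chrm3* 0, and 35.7% of 32851 promoters of the same length held at least 1. Their G and C content was 70.3%, 52.7% and 57.3%, and they held 23, 16 and 11 CpG dinucleotides, in the same order. RefSeq promoters were found for 9 of the 10 receptor genes.

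Across cell types, *Chrm2* was highest in neurons, without overlap with any other type, while *Chrm3* overlapped between neurons and fibroblasts. *Chrm2* reached 258, 269, 262 and 253 CPM in neurons of control replicates 1 and 2 and AgRP-Gq;POMC-Gi replicates 1 and 2, an order kept for all lists of 4 values below (260.6 ± 6.68 CPM, mean ± SD of 4 libraries). The next cell type, choroid plexus, had 57.0 ± 106 CPM, a mean set by control replicate 1 (216 CPM), where 2 nuclei were kept. *Chrm2* in endothelial nuclei was at 48.0 ± 33.7 CPM and in tanycyte-like nuclei at 37.3 ± 51.8 CPM, and below neurons every neighbour in the order overlapped the next over libraries. *Chrm3* was at 331, 366, 393 and 325 CPM in neurons (353 ± 31.9) and at 128, 342, 120 and 364 CPM in fibroblasts (238 ± 133), so these cell types overlapped. Fibroblasts stood above the next cell type, Ms4a4b.Immune, at 63.4 ± 35.7 CPM from 6 of 61 nuclei.

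Within fibroblasts *Chrm3* was high in clusters 47 and 93 and low in the others. Cluster 47 held 838 CPM, with a UMI in 74 of 159 nuclei, and cluster 93 held 628 CPM, with a UMI in 44 of 105. In cluster 47 the libraries gave 345, 886, 524 and 874 CPM, and 3 of these stood above the highest library of neurons (393 CPM). Clusters 27, 44 and 69 held 37.3, 26.2 and 12.0 CPM. Neuronal markers summed to 177 CPM in cluster 47 and to 82.9 CPM in cluster 93, far below the level in neurons. Among endothelial clusters *Chrm2* was highest in cluster 164, with 465 CPM and a UMI in 13 of 46 nuclei, above the level of any neuron library. Of these nuclei 34 came from control replicate 2, and neuronal markers summed to 247 CPM.

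*Chrm1*, the main muscarinic receptor of the cortex, was not highest in neurons. It averaged 15.3 CPM in the nuclei annotated as Oligodendrocytes/OPC, where 5 of 123 nuclei held it, 6.94 CPM in mural nuclei (6 of 806), 5.58 CPM in ependymal nuclei (5 of 314), 4.65 CPM in oligodendrocyte precursors (OPC), where 15 of 784 nuclei held it, and 0.403 CPM in neurons, where 47 of 12539 nuclei held it. Libraries of these cell types overlapped, and the OPC libraries ranged from 0 to 7.23 CPM. *Drd2* was at 11.1, 10.3, 10.2 and 12.5 CPM in neurons (11.0 ± 1.06) and at 6.25 ± 12.5 CPM in tanycyte-like nuclei, where 2 of 202 nuclei, both of control replicate 2, held a UMI, and the other 3 libraries were at 0 CPM. *Drd3* in neurons (1.97 ± 0.38 CPM) stood above every library of the next cell type, astrocytes (0.242 CPM).

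**Figure D1:**
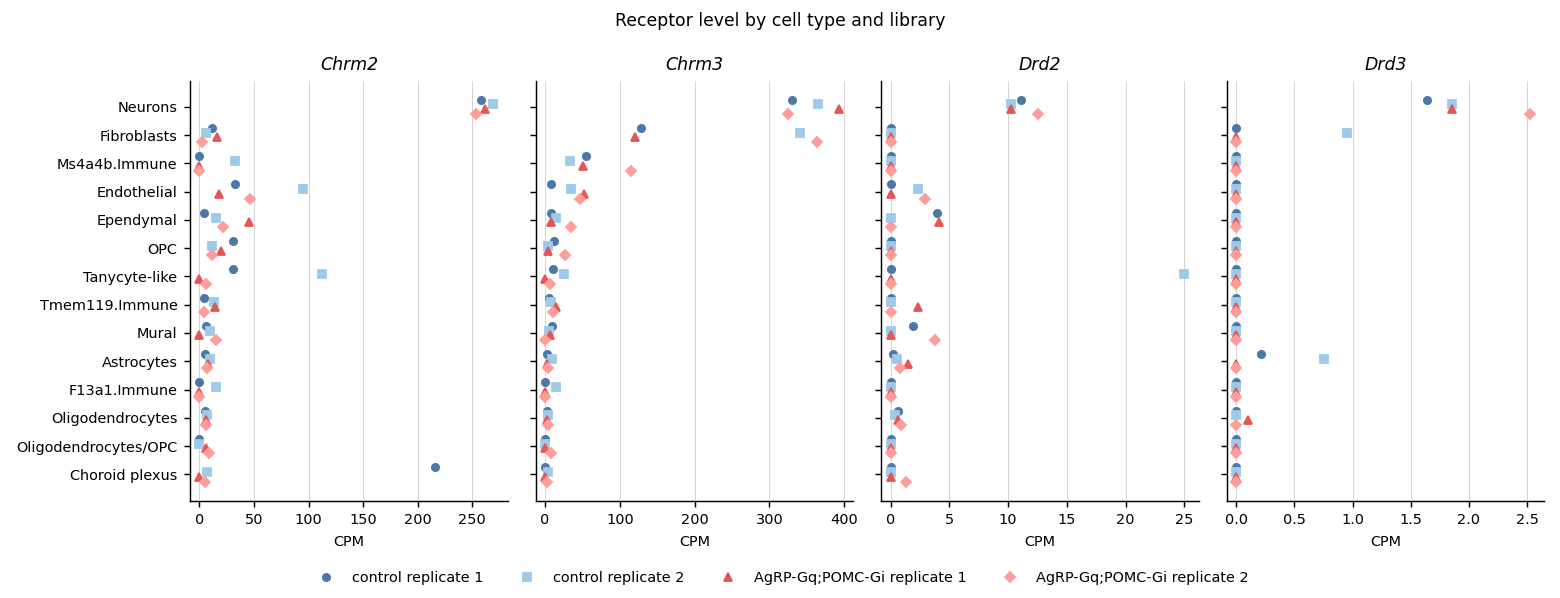
Level of *Chrm2*, *Chrm3*, *Drd2* and *Drd3* (CPM, x axes with separate scales) in each of the 14 annotated cell types (y axis), with 1 point per library and colours for the groups. Neurons stand apart for *Chrm2* at 253 to 269 CPM, while fibroblasts at 120 to 364 CPM overlap with neurons for *Chrm3*.

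Among neuronal clusters, the Gi-coupled *Chrm2* was broad. Its level in the lowest library of a cluster exceeded the highest oligodendrocyte library in 113 of 120 clusters (94.2%), of which 56 were glutamatergic, 45 GABAergic, 7 mixed and 5 without a class. For comparison, 26.9% of all pairs of a gene and a cluster met this rule, among genes found in 5% of neurons or more. The rule asked for little more than a UMI in each library, which *Chrm2* had in 114 clusters. The median cluster held 242.6 CPM, and the highest cluster held 3.80 times as much. The 10 highest clusters gave 14.5% of the *Chrm2* UMIs of neurons. The levels across clusters are a description without a test, since clusters were built from expression.

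*Chrm2* was highest in cluster 142 (named *Cpne4*/*Trhde* after its leading genes), in cluster 130 (*Qrfpr*/*Tac1*) and in cluster 92. Cluster 142 gave 848, 795, 1213 and 833 CPM (922 ± 195), with a UMI in 93.3% of 60 nuclei. Cluster 130 gave 835, 606, 905 and 1237 CPM (896 ± 261), with a UMI in 95.5% of 66 nuclei. In cluster 92 the 4 values were 597, 1030, 723 and 757 CPM (777 ± 182), and 86.9% of 107 nuclei held a UMI. These 3 clusters overlapped over libraries and cannot be ordered beyond their spread. After each nucleus was thinned to 2000 UMIs, 78.3%, 74.2% and 70.2% of their nuclei still held a *Chrm2* UMI.

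At the other end, *Chrm2* was near background in cluster 140 (*Fgf10*/*Cpne4*), with 0, 34.0, 0 and 5.73 CPM, and in cluster 97 (*Gfral*/*Sctr*), with 14.8, 14.6, 21.4 and 3.53 CPM. *Gfral* encodes the receptor of the hormone GDF15, which is known from neurons of the area postrema. Cluster 97 was also next to last for *Chrm3* at 15.3 CPM. The lowest clusters of *Chrm2* overlapped with oligodendrocytes, in which libraries reached up to 6.45 CPM.

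The Gq-coupled *Chrm3* was as broad but more uneven. It exceeded oligodendrocytes in every library in 111 of 120 clusters (92.5%), 54 glutamatergic, 44 GABAergic, 7 mixed and 6 without a class, and its highest cluster was 10.6 times the median of 297.5 CPM. Those 111 were all the clusters with a *Chrm3* UMI in every library. The GABAergic cluster 144 (*Nox4*/*Kcnmb2*) gave 3531, 2990, 3028 and 3037 CPM (3146 ± 257), with a UMI in 96.6% of 58 nuclei. The glutamatergic cluster 111 (*Cartpt*/*Postn*) gave 1977, 2326, 3353 and 2657 CPM (2578 ± 586), with a UMI in 96.6% of 87 nuclei. Cluster 142, rank 1 for *Chrm2*, had rank 3 for *Chrm3*, with 1963, 1843, 1402 and 1666 CPM (1718 ± 244). Clusters 144 and 111 overlapped over libraries through AgRP-Gq;POMC-Gi replicate 1, which was high in cluster 111, while no library of cluster 142 reached the lowest of cluster 111. Cluster 133 (*Nxph2*/*Nox4*) followed at 1222 ± 328 CPM and cluster 87 (*Col25a1*/*Nox4*) at 1111 ± 86.0 CPM, both GABAergic. *Nox4*, an NADPH oxidase gene, was thus a naming gene of 3 of the 5 highest *Chrm3* clusters. Cluster 74 (*Rbm20*/*Nox4*), also named for it, was not among these 5.

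*Chrm3* was lowest in cluster 167 (*Tph2*/*Slc6a4*), whose naming genes encode an enzyme of serotonin synthesis and the serotonin transporter. That cluster gave 3.99, 36.1, 0 and 0 CPM, from 3 UMIs in 2 of 43 nuclei. Clusters 97 and 181 (*Sntb1*/*Cpne4*) followed at 15.3 and 15.9 CPM.

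**Figure D2:**
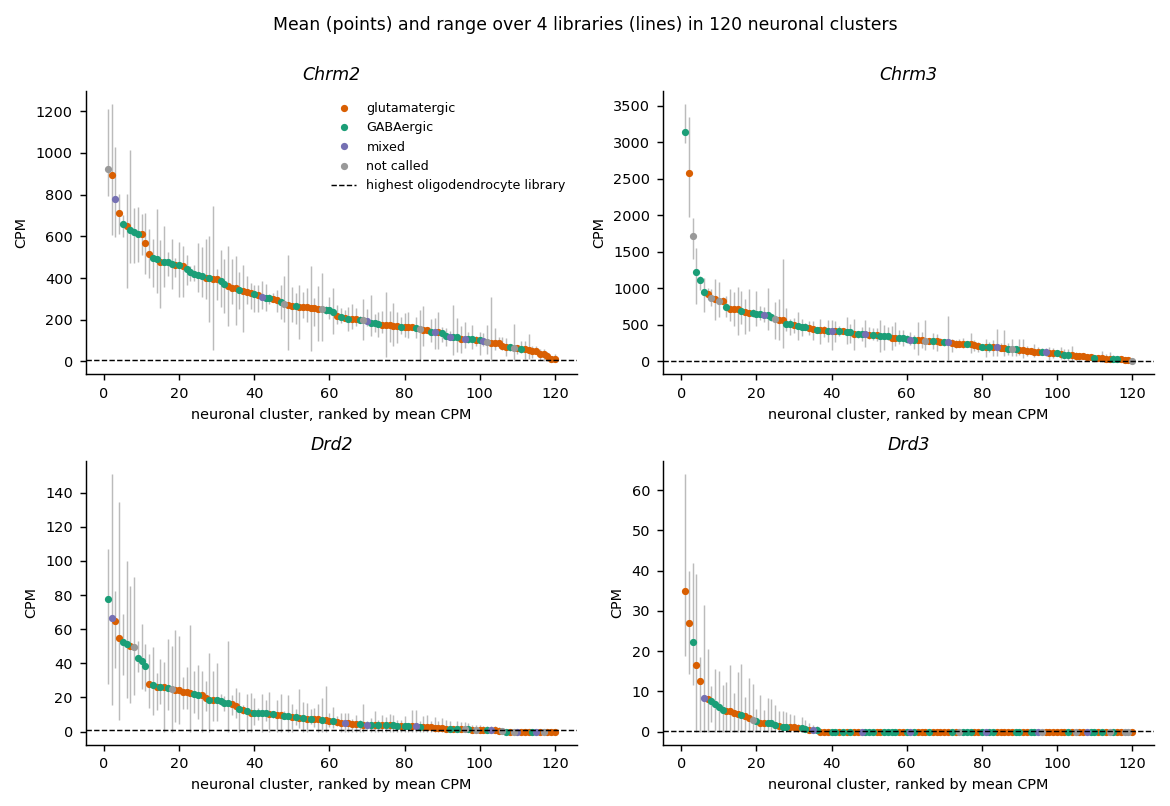
Mean CPM over 4 libraries (points, coloured by transmitter class) and lowest to highest library (vertical lines) in 120 neuronal clusters ranked by mean (x axes), with the highest oligodendrocyte library as a dashed line. *Chrm2* and *Chrm3* lie above that line in 113 and 111 clusters, *Drd2* in 43 and *Drd3* in 4; by the thinned share of nuclei these counts were 98, 100, 4 and 1.

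The 10% of positive neurons with most UMIs gave 35.8% of the UMIs of *Chrm3* and 34.3% of those of *Chrm2*. A neuron with *Chrm3* had a median of 4 UMIs and at most 79, and 409 neurons with 20 or more UMIs held 26.7% of all its UMIs. *Chrm2* had a median of 3 UMIs per neuron that held it and at most 61, and 142 neurons with 20 or more UMIs held 11.3% of its UMIs. Of neurons with *Drd2*, 75.0% held a single UMI, and the highest held 12.

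*Chrm2* and *Chrm3* were detected together in 3879 neurons (30.9%). *Chrm2* alone was found in 3011 neurons (24.0%), *Chrm3* alone in 2509 (20.0%) and neither in 3140 (25.0%). At an equal depth of 2000 UMIs, in 12373 neurons, these shares were 11.3%, 19.3%, 21.6% and 47.8%, so the share with both depended strongly on depth. Across the 120 clusters their levels had a Spearman correlation of 0.32, where all clusters share the same 4 libraries. In some clusters 1 of the genes ranked well above the other. The median cluster held 242.6 CPM of *Chrm2* and 297.5 CPM of *Chrm3*. Cluster 111 held 207 ± 26.6 CPM of *Chrm2*, rank 64, beside its high *Chrm3*. Cluster 109 (*Gcg*/*Reln*), named for the gene of the precursor of glucagon-like peptide, held 566 ± 125 CPM of *Chrm2*, rank 11, and 225 ± 60.1 CPM of *Chrm3*, rank 78. Cluster 146 (*Rxfp1*/*Ebf2*) held 339 ± 137 CPM of *Chrm2* and 44.6 ± 66.0 CPM of *Chrm3*.

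**Figure D3:**
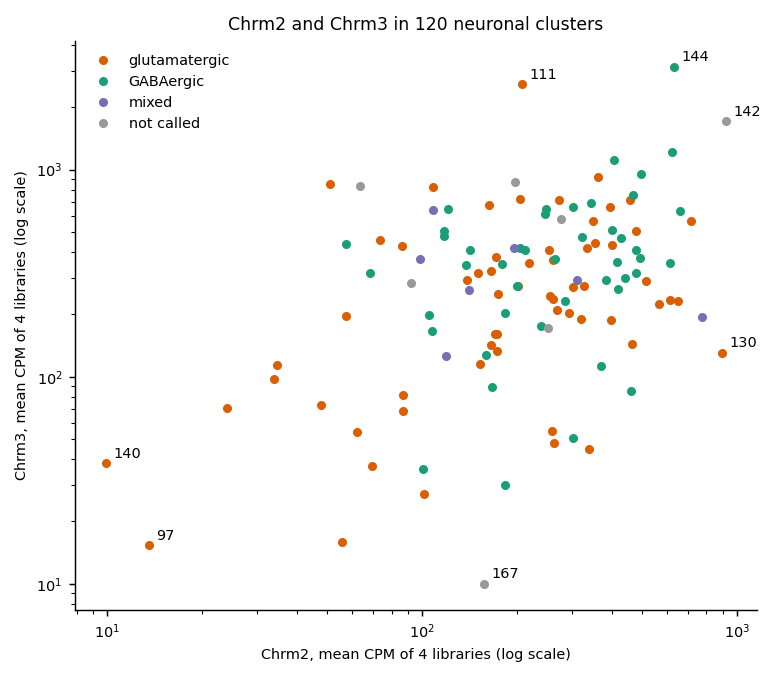
Mean CPM of *Chrm2* (x axis, log scale) against *Chrm3* (y axis, log scale) in 120 neuronal clusters, 1 point per cluster, coloured by transmitter class. Cluster 142 is high for both genes, 144 and 111 are highest for *Chrm3*, and 97 is low for both.

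Genes whose level followed a receptor most closely over the 120 clusters are given by Spearman correlation as a description. For *Chrm2* they were 9330158H04Rik (0.89), *Ptn* (0.52) and *Trim9* (0.42). The first is the antisense gene that overlaps the *Chrm2* start, where it was not established whether reads were kept apart. It was at 41.1, 45.6, 49.8 and 42.8 CPM in neurons. For *Chrm3* the closest genes were *Prickle1* (0.44), *Kcnd2* (0.42) and *Pde4a* (0.41). *Drd2* was followed by *R3hdm1* (0.60), *Rapgef5* (0.56) and *Prkg1* (0.53), and *Drd3* by *Adgrl2* (0.40), *Pcdh17* (0.39) and Gm29771 (0.38).

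*Chrm1*, *Chrm4* and *Chrm5* could not be placed in any neuronal cluster at this depth. Each exceeded the highest oligodendrocyte library in 0 clusters, and no UMI was found in 95, 105 and 112 of the 120 clusters. *Chrm1* was highest in cluster 130, with 4 UMIs in 3 of 66 nuclei, then in cluster 149 (*Cartpt*/*Arhgap28*) and cluster 126 (*Tfap2b*/*Slc39a8*), with 3 UMIs each. The 3 highest clusters of *Chrm4* (181, 172 and 129) and of *Chrm5* (120, 75 and 92) rested on 1 UMI each. The summed counts of both genes were 17 and 8 UMIs in 12539 neurons.

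Of the D2-like receptors, *Drd2* was found above oligodendrocytes in every library in 43 of 120 clusters (35.8%), of which 22 were GABAergic and 18 glutamatergic. Those 43 were all the clusters with a *Drd2* UMI in every library, so the rule asked for no more than that. Detection rates were also compared after thinning, to 2000 UMIs in clusters and 800 in oligodendrocytes. The count was then 4 for *Drd2*, against 98 for *Chrm2* and 100 for *Chrm3*. These depths still differed, which favours detection in neurons. The median cluster held 6.44 CPM, and 14 clusters held no UMI. The GABAergic cluster 162 (*Chrdl1*/*Kcnh8*) was highest with 95.3, 27.9, 80.2 and 107 CPM (77.6 ± 34.9), and 45.8% of its 48 nuclei held a UMI. Cluster 49 (*Ccbe1*/*Tspan18*) gave 15.7, 151, 59.6 and 40.0 CPM (66.6 ± 59.1), a mean that rested on control replicate 2. Cluster 63 (*Ebf2*/*Th*) was more even, with 82.2, 37.5, 74.9 and 65.4 CPM (65.0 ± 19.6), and 29.5% of 139 nuclei held a UMI. Cluster 55 (*Rab38*/*Ano1*), rank 5 at 52.7 ± 14.6 CPM, held *Drd2* in 54 of 149 nuclei (36.2%). All 4 clusters overlapped over libraries.

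After thinning to 2000 UMIs, 17.0% of nuclei in cluster 162, 9.33% in cluster 49 and 11.7% in cluster 63 still held a *Drd2* UMI. Cluster 162 was also among the highest for *Chrm3* at 954 ± 212 CPM, rank 6. Clusters 133 and 144 were among the 10 highest for *Chrm2*, *Chrm3* and *Drd2*, at 51.1 ± 34.6 and 41.7 ± 16.5 CPM of *Drd2*.

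**Figure D4:**
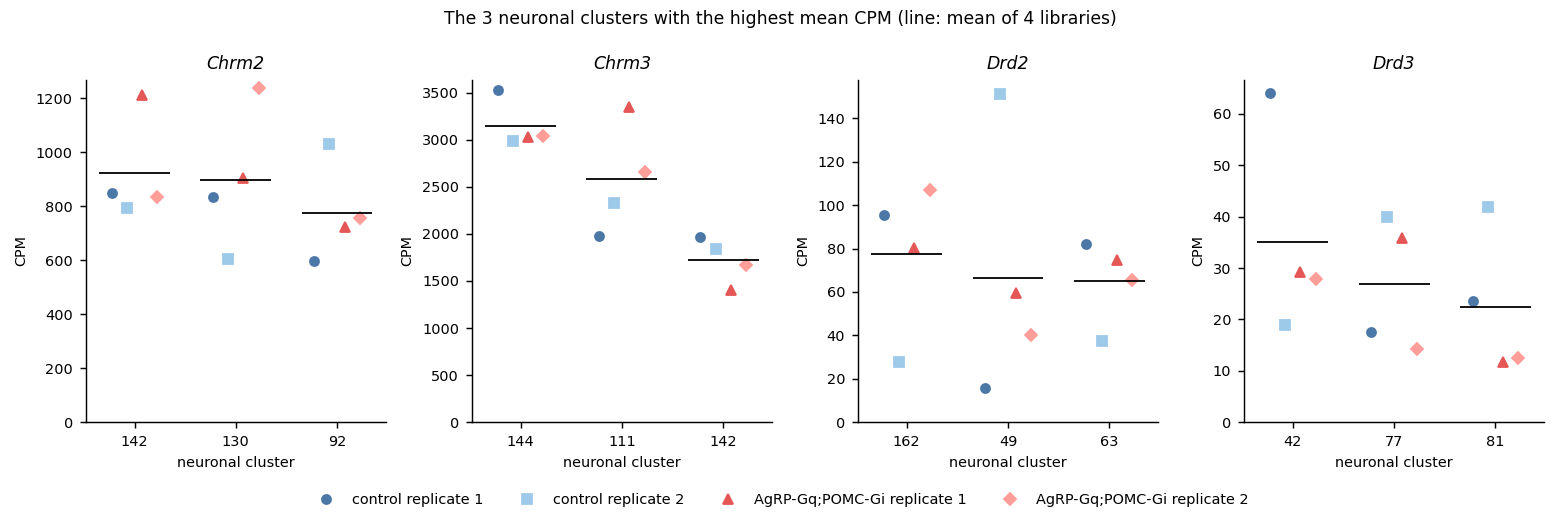
CPM by library (points, coloured by group) and mean of 4 libraries (line) in the 3 neuronal clusters with the highest mean for *Chrm2*, *Chrm3*, *Drd2* and *Drd3*. The groups do not overlap in clusters 130 of *Chrm2*, 111 and 142 of *Chrm3* and 81 of *Drd3*, none of them called. The share of all pairs that separate in this way was not counted. Cluster 49 of *Drd2* spans 15.7 to 151 CPM.

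*Drd3* had most of its UMIs in few clusters, and the 10 highest gave 67.6% of them while holding 8.45% of the neurons. These 10 were picked by the same values, so a high share is partly built in. For the rarer receptor genes this share ranged from 37.7% (*Drd5*) to 100% (*Chrm5* and *Drd4*). *Drd3* stood above oligodendrocytes in every library in 4 clusters, or in 1 by the thinned share, and had no UMI in 84. Those 4 were all the clusters with a *Drd3* UMI in every library. Cluster 42 (*Mylk*/*Mctp2*) gave 64.0, 18.9, 29.3 and 27.9 CPM (35.0 ± 19.9), with a UMI in 39 of 166 nuclei (23.5%). Cluster 77 (*Ankfn1*/*Tcerg1l*) gave 17.6, 40.0, 35.8 and 14.2 CPM (26.9 ± 12.9), with a UMI in 20 of 120 nuclei. The GABAergic cluster 81 (*Gbx1*/*Fgf10*) gave 23.5, 41.8, 11.7 and 12.5 CPM (22.4 ± 14.1), with a UMI in 19 of 114 nuclei. The 3 clusters overlapped over libraries. *Drd4* summed to 16 UMIs in neurons, and its highest cluster, 157 (*Cnpy1*/*Adamts18*), rested on 2 UMIs of 1 nucleus. It was followed by clusters 101 (*Kcnmb2*/*Ebf3*) and 56 (*Kcnmb2*/*Sema3a*), with 3 UMIs each.

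The D1-like receptors were rare. *Drd1* gave 48 UMIs in 42 neurons, and cluster 109 was highest with 14.5, 7.93, 0 and 2.87 CPM, from 7 UMIs in 4 of 89 nuclei. Cluster 76 followed at 3.65 CPM from 4 UMIs. Cluster 46 (*Col18a1*/*Gpc3*), with 6 UMIs in 4 of 161 nuclei, was the single cluster in which every library held a *Drd1* UMI, at 2.21, 5.15, 4.57 and 2.35 CPM. *Drd5* gave 61 UMIs in 58 neurons. Its highest cluster, 92, gave 27.6, 0, 13.4 and 7.14 CPM from 8 UMIs in 6 of 107 nuclei, followed by clusters 142 (2 UMIs) and 102 (*Necab1*/*Pde1a*, 3 UMIs). Counts of this size cannot order the clusters.

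Clusters with most UMIs of ligand markers were then looked at. For cholinergic markers the first was 116 (*Prph*/*Slc5a7*). It held 164 CPM of *Chat*, which encodes the enzyme of acetylcholine synthesis, and 282 CPM of *Slc5a7*, the choline transporter. *Slc18a3*, the third marker, was at 15.0 CPM. Cluster 116 held 252 ± 134 CPM of *Chrm2* (rank 58), 171 ± 110 CPM of *Chrm3* (rank 88) and 1 UMI of *Drd2*. The glutamatergic cluster 123 (*Reln*/*Pou4f1*), second for these markers, held 456 ± 117 CPM of *Chrm2* and 712 ± 289 CPM of *Chrm3*. There *Chat* was at 54.4, *Slc5a7* at 98.1 and *Slc18a3* at 0 CPM, so cluster 123 was not named cholinergic. The dopamine transporter gene *Slc6a3* gave 7 UMIs in all neurons and 0 in the 3 clusters with most dopamine marker UMIs (167, 97 and 76), which were led by *Ddc*, so none of these 3 was named dopaminergic. Cluster 76, with *Th* and *Dbh*, the enzymes of noradrenaline synthesis, was low for *Chrm2* at 34.5 ± 25.3 CPM, rank 116. In cluster 63, rank 3 for *Drd2*, *Th* was at 107 CPM and *Dbh* at 0, and *Chrm3* was found in 7.91% of nuclei at 48.0 ± 23.4 CPM.

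By transmitter class, *Chrm2*, *Chrm3* and *Drd2* were each higher in GABAergic than in glutamatergic neurons in every library. A cluster was called glutamatergic where *Slc17a6* was at least 4-fold *Slc32a1*, and GABAergic in the reverse case, which gave 69 and 46 clusters with 6201 and 4933 neurons. *Chrm2* was at 307, 286, 286 and 305 CPM in GABAergic and at 223, 261, 244 and 211 CPM in glutamatergic neurons. *Chrm3* was at 405, 395, 423 and 404 CPM in GABAergic and at 270, 346, 365 and 267 CPM in glutamatergic neurons. *Drd2* was at 13.4, 14.3, 12.4 and 15.8 CPM against 9.66, 7.41, 9.12 and 10.3 CPM. The classes did not overlap for any of the 3 genes, a pattern met by 9.38% of 12115 genes in this direction and by 6.09% in the other. *Drd3* was at 1.67 ± 0.52 CPM in GABAergic and at 2.35 ± 0.33 CPM in glutamatergic neurons, with overlap.

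The comparison of AgRP-Gq;POMC-Gi with control mice asked whether receptor levels changed when AgRP neurons were activated and POMC neurons inhibited. No receptor gene was called different over all neurons. Log2 fold changes (AgRP-Gq;POMC-Gi over control, edgeR's quasi-likelihood test) were 0.03 ± 0.09 (SE, adjusted p = 0.952) for *Chrm2*, 0.11 ± 0.14 (adjusted p = 0.870) for *Chrm3* and 0.15 ± 0.13 (adjusted p = 0.826) for *Drd2*. These 3 passed the filter, detection in 5% of neurons or more. The call rate over all 12115 genes was 0% with edgeR, of which 667 had an unadjusted p under 0.05, and DESeq2 called 10 genes, none of them a receptor. Without the filter, *Drd3* had a log2 fold change of 0.38 ± 0.23 (edgeR, unadjusted p = 0.132), and the other 6 receptor genes had standard errors of 0.41 to 0.98.

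These comparisons depended on single libraries. Without AgRP-Gq;POMC-Gi replicate 2, the library with low *Xist*, edgeR called 2017 genes and *Chrm3* among them (0.29 ± 0.07, adjusted p = 0.0313). In such a fit the lone library is assumed to vary like the other group, whose 2 libraries give the spread. With AgRP-Gq;POMC-Gi replicate 1 left out, the value for *Chrm3* was -0.10 ± 0.07. *Chrm3* in neurons of these 2 libraries was at 393 and 325 CPM, and the controls, at 331 and 366 CPM, lay between them.

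No difference of the group effect between glutamatergic and GABAergic neurons was called. The interaction was 0.08 ± 0.16 on the log2 scale for *Chrm2*, 0.00 ± 0.25 for *Chrm3* and -0.16 ± 0.23 for *Drd2* (edgeR, adjusted p = 1.00 each). Of 12141 genes 0% were called with edgeR, 119 had an unadjusted p under 0.05, and DESeq2 called 0. This fit held no term for the library, so the class sums of the same library were taken as independent. The standard errors and p-values of the interaction therefore leave out the pairing of classes within a library. With a library block, chosen after seeing the data, edgeR gave 573 genes with an unadjusted p under 0.05 and also called 0. Among the other cell types, *Chrm3* in fibroblasts had a log2 fold change of -0.05 ± 0.56 (edgeR, adjusted p = 1.00) and in Ms4a4b.Immune nuclei of 1.01 ± 1.40 (adjusted p = 0.966). Over cell types 0.09% of all pairs of a gene and a cell type were called.

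Within single clusters, 309 pairs of a receptor gene and a neuronal cluster were tested, 119 for *Chrm2*, 118 for *Chrm3*, 62 for *Drd2*, 8 for *Drd3* and 1 each for *Chrm1* and *Drd5*. edgeR called 4 pairs (1.29%), 2 higher and 2 lower in AgRP-Gq;POMC-Gi, against 0.0385% of 1396489 pairs over all genes. An unadjusted p under 0.05 was reached by 59 pairs (19.1%), against 4.52% of all pairs, with 11 higher and 13 lower for *Chrm2* and 20 higher and 11 lower for *Chrm3*. The shares over all pairs were not matched for level or for the spread of UMIs over nuclei. The excess of receptor pairs therefore cannot be read as a response of the receptors. The median log2 fold change over clusters was 0.07 for *Chrm2*, 0.02 for *Chrm3* and -0.01 for *Drd2*. DESeq2 called 0 of the 309 pairs.

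*Chrm3* was higher in cluster 53 (*Gal*/*Dkk2*), named for the gene of the neuropeptide galanin. It gave 47.7, 71.6, 305 and 217 CPM, from 9, 12, 119 and 128 UMIs, and was held by 2 of 17, 2 of 19, 15 of 43 and 19 of 72 nuclei. Both AgRP-Gq;POMC-Gi libraries stood above both control libraries. The log2 fold change was 2.19 ± 0.36, or 4.56-fold (edgeR, adjusted p = 0.0334), and 2.07 without the nucleus with most UMIs (adjusted p = 0.0474). DESeq2 gave an adjusted p of 0.244. With 1 library left out, edgeR gave log2 fold changes of 1.87 to 2.49, in fits that take the spread from the other group alone.

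*Chrm3* was lower in cluster 140, with 56.3, 96.3, 0 and 0 CPM. The UMIs came from 2 of 10 and 3 of 14 control nuclei (7 and 17 UMIs), against 0 of 12 and 0 of 25 nuclei in the AgRP-Gq;POMC-Gi libraries. The pooled controls were at 79.8 CPM, and edgeR called the pair lower (adjusted p = 1.228e-05). Single nuclei held up to 6 and 9 UMIs in control replicates 1 and 2. A limit of 3 UMIs for a count of 0 (6.22 CPM) takes UMIs as independent, so no lowest fold was drawn from it. The pair passed the filter of 5% of nuclei only through the control group, where it was high, so the call rests partly on that selection. The call was lost with DESeq2 (adjusted p = 0.999), with either control replicate 2 (0.116) or AgRP-Gq;POMC-Gi replicate 2 (0.122) left out, and with the replicate number as a block (0.240).

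The other 2 calls rested on single nuclei or libraries. *Chrm3* in cluster 92 gave 73.5, 97.6, 451 and 157 CPM (log2 fold change 1.85 ± 0.40, edgeR, adjusted p = 0.0442), and 1 nucleus of AgRP-Gq;POMC-Gi replicate 1 held 79 of its 101 UMIs. Without that nucleus the library was at 106 CPM and the log2 fold change was 0.65 ± 0.38 (adjusted p = 0.993). *Chrm2* in cluster 168 (*Rspo2*/*Ntng1*) gave 308, 20.8, 19.5 and 0 CPM (log2 fold change -4.25 ± 0.74, edgeR, adjusted p = 0.00012). Of 43 UMIs in that cluster 40 came from control replicate 1, and without this library the log2 fold change was -0.86 (adjusted p = 0.920).

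*Drd2* had its lowest p in cluster 80 (*Pdyn*/*Cpa6*), named for the gene of the opioid precursor prodynorphin, with 17.1, 42.4, 85.6 and 56.6 CPM (log2 fold change 1.38 ± 0.53, edgeR, adjusted p = 0.461). *Drd3* had its lowest p in cluster 55, with 0, 0, 9.16 and 15.1 CPM from 12 UMIs (edgeR, adjusted p = 0.909), and passed the filter only through the AgRP-Gq;POMC-Gi group. *Chrm1* could be tested in cluster 149 (edgeR, unadjusted p = 0.805) and *Drd5* in cluster 92 (unadjusted p = 0.947). In the clusters highest for each gene, the difference was not called for *Chrm2* in cluster 142 (0.48 ± 0.35), *Chrm3* in cluster 144 (-0.03 ± 0.22), *Drd2* in cluster 162 (0.77 ± 0.61) or *Drd3* in cluster 42 (-0.40 ± 0.45). Among tested pairs in the 3 highest clusters per gene, the groups did not overlap for *Chrm2* in cluster 130 (0.56 ± 0.31), *Chrm3* in clusters 111 (0.65 ± 0.21) and 142 (-0.18 ± 0.34) and *Drd3* in cluster 81 (-1.39 ± 0.64), with adjusted p of 0.987, 0.267, 0.997 and 0.988 by edgeR. They also did not overlap for *Chrm1* in cluster 130 (0, 0, 11.0 and 24.0 CPM, 4 UMIs) and *Drd1* in cluster 109 (14.5, 7.93, 0 and 2.87 CPM, 7 UMIs), which were below the filter and not tested. With so few libraries per group, such a separation carries little weight. The share of all pairs that show it was not counted. Changes made in simulated counts were called for 24.5% of genes changed 4-fold in cluster 162 and for 55.5% in cluster 55, so a difference that was not called in a cluster is not shown to be absent.

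**Figure D5:**
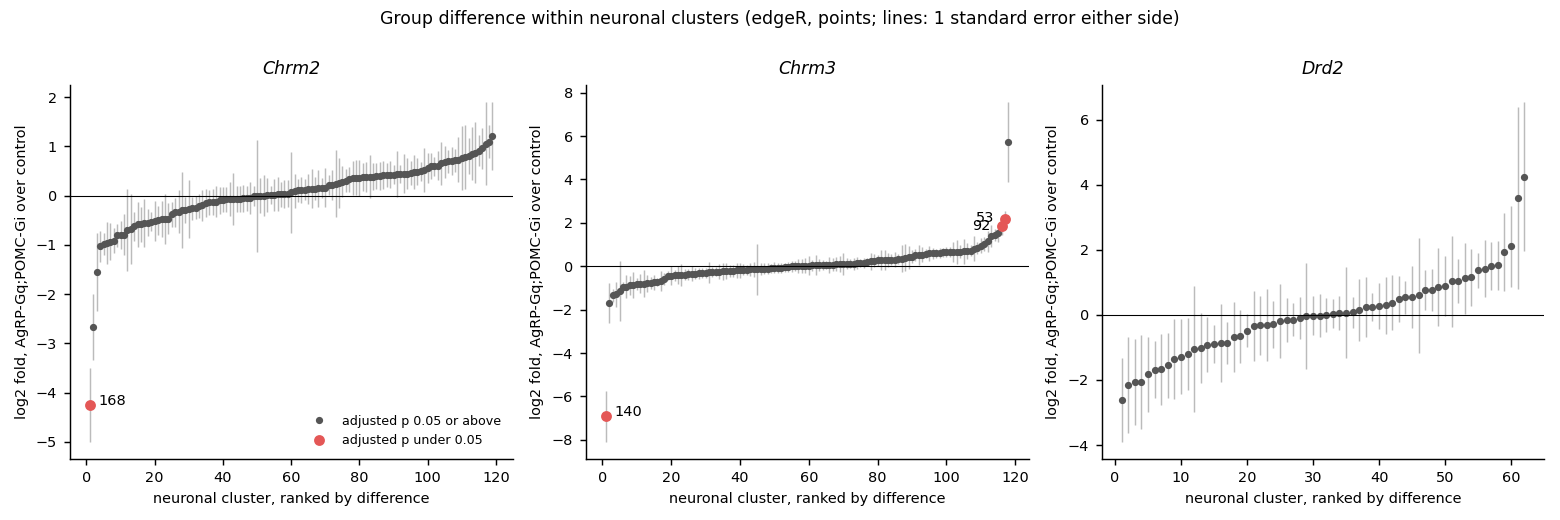
Log2 fold change (AgRP-Gq;POMC-Gi over control, y axes) of *Chrm2*, *Chrm3* and *Drd2* in each neuronal cluster in which the gene was tested, ranked by the difference (x axes), with lines of 1 standard error either side and called pairs in red. Values lie on both sides of 0, with medians of 0.07, 0.02 and -0.01, and 4 pairs are marked as called; the fitted value of cluster 140, with 0 UMIs in 1 group, depends on the prior count.

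None of the genes that make, remove or relay the ligands was called different between the groups over all neurons. The list held 60 genes of acetylcholine and dopamine handling, G proteins, effectors and regulators, of which 47 passed the filter and 0 were called by edgeR, with 2 at an unadjusted p under 0.05. Their median log2 fold change was 0.00, as over all 12115 genes (-0.00), and 24 of 47 values were above 0. Of the 9 G protein genes tested, 1 had a value above 0, with a median of -0.07. The other G protein genes were all lowest in AgRP-Gq;POMC-Gi replicate 1, as *Gnas* at 719, 732, 635 and 722 CPM. The share of values above 0 over all genes was not counted. *Rgs9*, a regulator that shortens Gi signalling, was at 30.2, 30.2, 33.9 and 37.1 CPM (log2 fold change 0.29 ± 0.08, edgeR, adjusted p = 0.810). *Plcb1*, the phospholipase downstream of Gq, was at 535, 548, 579 and 622 CPM (0.21 ± 0.09). The next 3 by p were *Adcy8* (0.20 ± 0.10) and *Adcy5* (-0.14 ± 0.08), adenylyl cyclases, and *Ncs1* (-0.17 ± 0.08), a calcium sensor known to bind the *Drd2* product. For *Ncs1* the libraries gave 51.2, 47.6, 38.6 and 45.8 CPM, and control values lay above both others. *Chat*, *Slc5a7*, *Th*, *Ddc*, *Slc6a3* and *Dbh* were among the 13 genes below the filter.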

How the data were processed

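The files hold UMI counts per gene and nucleus, which the authors deposited per library as raw counts from Cell Ranger 7.0.0 on GRCm38 (10x Chromium 3′ kit), and a table of nuclei from Seurat 4.3.0 with cluster and cell type. That table was used for the nuclei the authors kept (passing at least 800 UMIs, among other filters, and doublet removal), so clusters and types are theirs. The annotation release, the strand setting and the use of intronic reads are not given in the sources used here. UMI totals matched the table in 44303 of 44303 barcodes.

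For each library, the UMIs of a cluster or cell type were added up per gene and scaled by their total (CPM). Differences between groups were tested with edgeR 4.0.16 (quasi-likelihood, TMM factors) in R 4.3.3, over genes found in 5% of nuclei or more, with Benjamini-Hochberg adjustment over all genes tested in that cluster or cell type and a threshold of 0.05. The alternatives included DESeq2 1.42.0, library size alone, other filters, a replicate block, equal weight per cluster, 10 nuclei per library and each library left out. A library block and called pairs without their highest nucleus were chosen after seeing the data. Intervals and limits of 3 counts cover counting error only. Tables used Python 3.11.15, pandas 2.3.3, numpy 2.4.6 and scipy 1.17.1. Figures were drawn with matplotlib 3.10.9.

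The receptor genes, the pathway list and the rule for named clusters and genes were chosen with earlier results of these data known. Named were the 3 highest clusters per receptor, every called pair or else the pair with the lowest p, the 5 pathway genes with the lowest p and the 3 genes most like a receptor; further clusters, chosen after their values were seen, are those low in a receptor, high in several, or rich in ligand markers. In simulated counts with 200 changed genes, 100% of 2-fold changes were called over all neurons with 10 false calls, and 6% in cluster 55. Some genes, among them marker genes and genes that name clusters, are not reported here. Promoters came from RefSeq on GRCm38.p6.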

Additional observations from a re-analysis of the deposited data

How the results depend on the processing

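Over all neurons, 0 to 1 of the 3 receptor genes tested were called when 1 library was left out, the call being *Chrm3* without AgRP-Gq;POMC-Gi replicate 2, and 0 under every other setting. Over cell types, 0 to 1 pairs were called with 1 library left out, and 1 with no filter on low counts (*Chrm2* in tanycyte-like nuclei, lower). Within neuronal clusters, the 4 calls among 309 pairs became 7 with library size alone (0.0429% of all gene and cluster pairs called), 7 of 508 with no filter (0.0543%), 1 of 226 with filterByExpr (0.0208%), 0 with DESeq2 (0.00344%) and 5 to 10 with 1 library left out (0.0568% to 0.0961%), 10 of them without AgRP-Gq;POMC-Gi replicate 1. The pathway list had 0 to 7 calls with 1 library left out, 7 of 47 without AgRP-Gq;POMC-Gi replicate 2, where 16.65% of all genes were called. With 1 library left out, 1 group is a single library, taken to vary like the other group. With equal weight per cluster, the log2 fold change of *Drd2* over all neurons moved by at least the spread between libraries of a group. Those of *Chrm2* and *Chrm3* moved by less than that spread. The cause of these shifts was not tested. The cluster with the highest level stayed the same for 5 of 10 receptor genes when 10 nuclei per library were required, and for 5 to 9 with 1 library left out. Cluster 130 took the first place for *Chrm2* in 4 settings, cluster 87 for *Chrm3* in 1 and clusters 63 or 49 for *Drd2* in 3. By the thinned share, *Drd2* stood above the reference in 4 clusters in place of 43. With the replicate number as a block, 7 cluster pairs (2 higher, 5 lower; 0.0567% of all pairs) and 169 genes over all neurons were called. The replicate numbers did not pair the samples by their labels, and the replicate differences of the groups correlated at 0.183 over genes. No setting reversed a called difference. The 6 rare receptor genes gave 8 to 61 UMIs each over all neurons, which limits what can be said of them.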
